A study of Homo sapiens with 6 samples.

Results

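Mitosis and kinetochore genes were described in PC3 cells, a human prostate cancer cell line, 3 libraries of which carried an shRNA labelled as a TTC3 knockdown and 3 a control shRNA. The 44 genes were chosen by symbol as mitotic kinases and regulators, spindle, kinetochore and cytokinesis genes, and each symbol matched 1 row of the 62700 in the gene table. All 44 are annotated as protein-coding. TTC3 encodes a ubiquitin ligase with tetratricopeptide repeats that is known to act on phosphorylated AKT. Control libraries carry the title abbreviation shNC and the genotype label WT, and both groups were grown alike. The labels state neither the number of hairpins, nor whether lines were clonal, nor whether replicates were separate cultures. A p-value therefore only sets the group difference against the scatter among these 6 libraries, and that scatter may be technical.

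Cells enter mitosis when cyclin B bound to CDK1 is activated by CDC25 phosphatases and freed from inhibition by WEE1. Kinetochores, built on nucleosomes that contain CENPA, then hold chromosomes to the spindle, and the spindle checkpoint holds back CDC20 and the anaphase-promoting complex until all chromosomes are attached. Securin and cyclin B are then destroyed, separase cuts cohesin, and the central spindle directs cytokinesis. Transcripts of many of these genes peak in G2 and mitosis. Their promoters often hold a cell cycle homology region (CHR), bound by the DREAM complex and by MYBL2 and FOXM1 with the MuvB core, and CCAAT boxes bound by NF-Y.

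Promoter sequence is shown for 4 genes because the motif was shared by members from different function groups. RefSeq entries (GRCh38.p14) were present for 36 of the 44 genes, each covering 250 bases before to 50 bases after the start. The CHR letters TTTGAA or TTCGAA, on either strand, occurred in 25 of 36 entries (69.4%), against 16.4% of 35116 promoters in the table and 11.9% of 13305 promoters of tested genes. CCAAT on either strand occurred in 26 of 36 (72.2%), against 34.6% of all promoters. Both motifs occurred in 19 of 36 (52.8%), against 6.38% of all promoters. The 4 genes below are called genes with a CHR from 4 function groups, printed 5′ to 3′ on the plus strand for the 250 bases before the start. Capitals mark the CHR and CCAAT letters, which read TTCAAA and ATTGG when they lie on the minus strand.
CENPA chr2:26785806-26786055: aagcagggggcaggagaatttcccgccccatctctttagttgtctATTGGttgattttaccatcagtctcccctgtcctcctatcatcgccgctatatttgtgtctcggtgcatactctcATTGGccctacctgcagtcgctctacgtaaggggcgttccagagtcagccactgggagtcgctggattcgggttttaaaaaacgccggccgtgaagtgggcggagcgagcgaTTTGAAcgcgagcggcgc
PLK1 chr16:23678639-23678888: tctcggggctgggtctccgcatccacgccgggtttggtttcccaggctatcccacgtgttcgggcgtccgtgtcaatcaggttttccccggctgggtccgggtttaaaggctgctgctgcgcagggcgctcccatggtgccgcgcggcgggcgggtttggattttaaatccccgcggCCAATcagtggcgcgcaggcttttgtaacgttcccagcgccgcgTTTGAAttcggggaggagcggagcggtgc
CDC20 chr1:43358731-43358980: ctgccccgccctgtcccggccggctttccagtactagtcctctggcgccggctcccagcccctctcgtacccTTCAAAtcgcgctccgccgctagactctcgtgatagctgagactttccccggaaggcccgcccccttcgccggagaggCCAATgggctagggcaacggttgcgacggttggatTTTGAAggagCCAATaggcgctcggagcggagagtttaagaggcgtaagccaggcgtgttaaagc
CDCA8 chr1:37692266-37692515: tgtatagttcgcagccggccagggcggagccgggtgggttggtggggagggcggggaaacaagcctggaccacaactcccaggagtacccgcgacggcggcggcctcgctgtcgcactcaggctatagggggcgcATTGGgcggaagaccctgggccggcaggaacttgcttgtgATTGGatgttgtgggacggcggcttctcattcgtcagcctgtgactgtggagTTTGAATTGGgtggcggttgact
The CHR begins 18 bases before the start in CENPA, 29 in PLK1 and 23 in CDCA8. CDC20 has one 65 bases before the start and another, on the minus strand, 178 bases before it. In CDCA8 the last letter of the CHR is also the first of a CCAAT box on the other strand, so the run reads TTTGAATTGG. A CHR occurred in 13 of the 23 genes with an entry that rose after TTC3 knockdown and in 12 of the 13 that did not, KIF23, which fell, among the latter. Because GENCODE 29 (hg38) places the first base of these 4 genes upstream of the RefSeq start, the CENPA and PLK1 windows lie inside the GENCODE gene spans and the CDC20 and CDCA8 windows run into them.

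Total estimated counts ran from 143246356 to 154832203 in the control libraries and from 144655100 to 155526861 in the TTC3 shRNA libraries. TTC3 itself measured 695.2, 684.0 and 680.1 CPM (counts scaled to library size, corrected by TMM) in control replicates 1 to 3 and 227.9, 183.0 and 177.9 in the knockdown replicates, a log2 change of −1.81 ± 0.10 (SE, adjusted p = 5.65e-05). The knockdown libraries differed among themselves. On the first 2 principal components, which held 61.3% and 14.3% of the variance, TTC3 shRNA replicate 1 lay apart from replicates 2 and 3. The 7SL and 7SK RNAs took 5.80%, 6.38% and 6.19% of counts in the controls and 5.00%, 8.77% and 10.6% in the knockdown. Relative to the control mean, log2 expression of 11270 genes changed per doubling of transcript length by −0.03, −0.17 and −0.20 in TTC3 shRNA replicates 1, 2 and 3. Of the marker genes, KRT8 measured 165 ± 4.09 and 166 ± 24.5 CPM (SD, n = 3), and KLK3 was listed at 0 in all 6 libraries. The endothelial gene PECAM1 measured 4.99 and 3.00 CPM, and the immune gene PTPRC no more than 34 counts in any library.

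Of the 44 mitosis genes, which were chosen with earlier results of these data known, more were higher than lower after TTC3 knockdown. By edgeR's quasi-likelihood test with Benjamini-Hochberg adjustment over 24325 tested genes, 28 of the 44 rose, 2 fell and 14 did not pass an adjusted p of 0.05. Over all tested genes 15.7% were called higher and 17.8% lower, and over the 11662 genes at a mean of at least 5 CPM, where all 44 lie, 25.4% and 18.0% (43.4% in either direction). The median log2 fold change of the 44 was 0.37, against −0.02 over all tested genes and 0.06 over those at 5 CPM or more. Changes were modest: they ran from −0.48 for KIF23 to 1.12 for CENPA, and CENPA alone reached a doubling. In 30 genes every knockdown library lay above every control library, against 23.3% of all tested genes and 34.0% of those at 5 CPM or more. In 2 genes every knockdown library lay below every control library, against 27.0% and 25.9%. The summed level of the 44 genes was 3991.6 to 4094.2 CPM in the controls and 4982.7 to 5344.9 CPM in the knockdown. In bulk RNA, a change in the share of cells in G2 or mitosis and a change in RNA per cell cannot be told apart. Scaling by library totals alone, which moves the median of all tested genes to −0.15, left 18 genes higher and 2 lower (10.4% and 22.0% of all tested genes). It ended the calls of FOXM1, BUB1, BUB3, ESPL1, CENPE, NUF2, SPC24, HMMR, RACGAP1 and TOP2A. Without TTC3 shRNA replicate 1, 31 rose and 4 fell, against 27.4% and 28.6% of all tested genes.

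**Figure D1:**
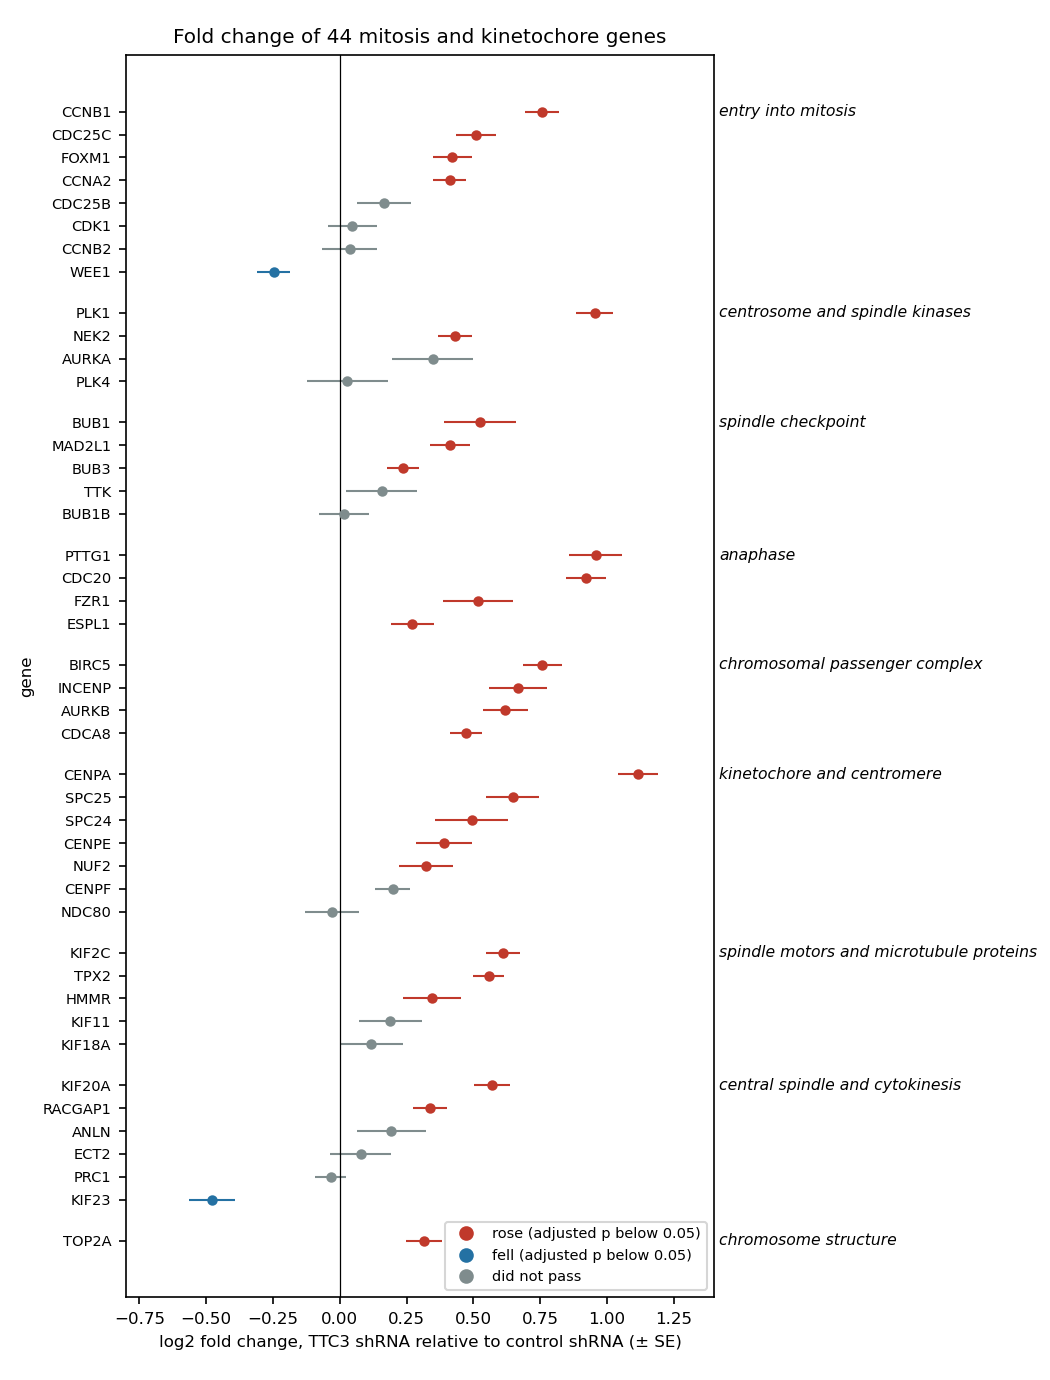
Log2 fold change of each of the 44 genes, TTC3 shRNA relative to control shRNA (x axis, points with SE), by function group (y axis), with red for genes that rose, blue for genes that fell and grey for genes that did not pass. CENPA lies farthest right at 1.12 and KIF23 farthest left at −0.48.

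Among regulators of entry into mitosis, 4 of 8 rose and 1 fell, with a median log2 change of 0.29. CCNB1 (cyclin B1; chr5:69167010-69178245 in hg38, as are the positions that follow) measured 70.0, 67.2 and 66.0 CPM in the controls and 120.6, 112.9 and 109.5 CPM in the knockdown, a log2 change of 0.76 ± 0.06 (adjusted p = 0.000275). CDC25C, a phosphatase that activates CDK1, measured 11.1, 10.4 and 10.9 CPM and then 15.6, 15.4 and 14.9 CPM, a change of 0.51 ± 0.075 (adjusted p = 0.00282). CCNA2 (cyclin A2) measured 49.7, 51.8 and 49.5 CPM and then 69.7, 63.3 and 67.7 CPM, a change of 0.41 ± 0.06 (adjusted p = 0.00329). For all 3 genes the groups did not overlap and the knockdown libraries lay close to each other. The transcription factor FOXM1 rose by 0.42 ± 0.07 on the log2 scale (adjusted p = 0.00580). WEE1 (chr11:9573681-9593457), the kinase that inhibits CDK1, went the other way, from 43.7, 40.2 and 41.2 CPM to 35.7, 34.7 and 35.0 CPM, a log2 change of −0.25 ± 0.06 (adjusted p = 0.0214). Its call was lost when any library but TTC3 shRNA replicate 1 was left out (adjusted p up to 0.109, without control replicate 1), while the log2 change stayed between −0.27 and −0.21. The remaining 3 did not pass. CDK1 itself measured 133.8, 126.3 and 120.3 CPM in the controls and 147.5, 120.5 and 125.0 CPM in the knockdown, and CCNB2 (cyclin B2) had a log2 change of 0.04 ± 0.10. CDC25B measured 242.4 to 254.3 CPM in the controls and 238.7, 292.7 and 308.4 CPM in the knockdown. It was above every control in knockdown replicates 2 and 3 and below them in replicate 1, and passed without that library (0.28, adjusted p = 0.000501).

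Of the centrosome and spindle kinases, PLK1 and NEK2 rose and AURKA and PLK4 did not pass. PLK1 (chr16:23677656-23690367), which acts in mitotic entry, spindle assembly and cytokinesis, measured 63.5, 67.1 and 68.2 CPM in the controls and 119.4, 132.1 and 133.3 CPM in the knockdown (0.95 ± 0.07 log2, adjusted p = 0.000144). NEK2, a kinase that separates centrosomes, measured 17.2, 18.3 and 17.9 CPM and then 24.4, 23.5 and 24.0 CPM (0.43 ± 0.07, adjusted p = 0.00317). Both were high in all 3 knockdown libraries. AURKA, the spindle pole kinase, measured 81.9, 81.2 and 86.0 CPM and then 133.4, 96.9 and 86.5 CPM (0.35 ± 0.15, adjusted p = 0.122). Its groups did not overlap, but TTC3 shRNA replicate 3 stood barely above the highest control. Without TTC3 shRNA replicate 1 AURKA passed at a smaller change of 0.16 (adjusted p = 0.0293), and without replicate 3 at 0.48 (adjusted p = 0.0431). PLK4, which starts centriole duplication, measured 27.2 to 28.9 CPM in the controls and 35.9, 25.6 and 23.9 CPM in the knockdown. Replicate 1 was above all controls and the other two below them, and without replicate 1 the change was −0.16 (adjusted p = 0.0245).

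For the spindle checkpoint, 3 of 5 genes rose and none fell, with a median of 0.24. MAD2L1, whose product holds CDC20 inactive, measured 41.3, 37.2 and 37.5 CPM in the controls and 53.7, 48.4 and 52.3 CPM in the knockdown (0.41 ± 0.07, adjusted p = 0.00603). BUB3, a scaffold of the checkpoint complex, measured 138.4, 133.2 and 130.5 CPM and then 154.6, 155.0 and 164.0 CPM (0.24 ± 0.06, adjusted p = 0.0223). BUB1, a kinetochore kinase, measured 89.7, 86.4 and 90.4 CPM and then 157.0, 118.2 and 108.1 CPM (0.52 ± 0.14, adjusted p = 0.0237). In each of the 3 the groups did not overlap, but BUB1 was far higher in TTC3 shRNA replicate 1 than in the other two. BUB1 lost its call without any 1 of the control libraries (adjusted p up to 0.0869, without control replicate 2) and BUB3 without any library but TTC3 shRNA replicate 1 (adjusted p up to 0.111, without control replicate 3). BUB1B, which encodes BubR1, measured 123.3 to 125.8 CPM in the controls and 142.1, 124.5 and 110.6 CPM in the knockdown, where replicate 1 was high, replicate 2 level and replicate 3 low. TTK, the MPS1 kinase, had a log2 change of 0.16 ± 0.13 (adjusted p = 0.406).

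All 4 anaphase genes rose, with a median of 0.72. CDC20 (chr1:43358955-43363203), an activator of the anaphase-promoting complex, measured 68.0, 67.4 and 66.4 CPM in the controls and 115.4, 134.8 and 131.8 CPM in the knockdown (0.92 ± 0.07, adjusted p = 0.000231). PTTG1 (chr5:160421822-160428744), securin, which holds separase inactive, measured 39.5, 39.6 and 40.5 CPM and then 66.0, 80.3 and 85.7 CPM (0.96 ± 0.10, adjusted p = 0.0007). FZR1 (CDH1), the activator that works in late mitosis and G1, measured 44.5, 46.7 and 45.8 CPM and then 52.0, 69.1 and 75.0 CPM (0.52 ± 0.13, adjusted p = 0.0221). The groups did not overlap for these 3, and in contrast to BUB1 the lowest knockdown value was in replicate 1. ESPL1, separase, rose by 0.27 ± 0.08 (adjusted p = 0.0372). Leaving out any library but TTC3 shRNA replicate 1 ended the calls of FZR1 (adjusted p up to 0.0837) and ESPL1 (up to 0.138), both at their highest without control replicate 1.

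The 4 subunits of the chromosomal passenger complex, which corrects chromosome attachment and later acts at the midzone, all rose, with a median of 0.64. BIRC5 (survivin; chr17:78214186-78225636) measured 178.6, 178.3 and 173.8 CPM in the controls and 272.5, 314.6 and 310.4 CPM in the knockdown (0.76 ± 0.07, adjusted p = 0.000517). CDCA8 (borealin; chr1:37692418-37709719) measured 34.6, 36.0 and 36.6 CPM and then 50.2, 50.4 and 47.9 CPM (0.47 ± 0.06, adjusted p = 0.00154). AURKB, the kinase of the complex, measured 23.1, 23.7 and 23.5 CPM and then 32.0, 37.5 and 38.4 CPM (0.62 ± 0.08, adjusted p = 0.00209). No knockdown library fell within the control range for any of them. INCENP, the scaffold, rose by 0.67 ± 0.11 (adjusted p = 0.00423), from 95.2 to 101.6 CPM in the controls to 129.9, 169.1 and 167.8 CPM in knockdown replicates 1, 2 and 3. Per kilobase of transcript, the control levels of the subunits were 67.8 ± 1.04 CPM for BIRC5, 24.8 ± 0.832 for INCENP, 19.95 ± 0.229 for AURKB and 14.8 ± 0.424 for CDCA8 (SD, n = 3), and the knockdown levels 114.7 ± 8.90, 39.4 ± 5.63, 30.6 ± 2.96 and 20.5 ± 0.579. The order was kept, with BIRC5 above the rest in both groups. All 4 genes kept their call in each of the 16 alternative settings.

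Kinetochore and centromere genes split: 5 of 7 rose, none fell, and the median was 0.39. CENPA (chr2:26764289-26801067), the histone H3 variant of centromeres, measured 13.7, 15.5 and 14.1 CPM in the controls and 31.9, 30.1 and 31.8 CPM in the knockdown (1.12 ± 0.08, adjusted p = 0.000103). SPC25 measured 8.997, 8.056 and 9.243 CPM and then 13.3, 13.0 and 14.9 CPM (0.65 ± 0.10, adjusted p = 0.00317). CENPE, a kinesin that moves chromosomes to the spindle middle, measured 91.2, 83.7 and 81.3 CPM and then 128.8, 108.0 and 98.7 CPM (0.39 ± 0.11, adjusted p = 0.0292). None of these overlapped between groups, and CENPA had the smallest adjusted p of the 44. SPC25 belongs to the NDC80 complex, which couples kinetochores to microtubules and holds 1 copy of each of 4 subunits. Its other subunits were uneven: SPC24 changed by 0.49 ± 0.14 (adjusted p = 0.0300), NUF2 by 0.32 ± 0.10 (adjusted p = 0.0457) and NDC80 by −0.03 ± 0.10 (adjusted p = 0.846). Per kilobase, the control levels were 24.3 ± 0.709 CPM for NDC80, 14.3 ± 0.641 for NUF2, 9.06 ± 0.166 for SPC24 and 6.47 ± 0.463 for SPC25 (SD, n = 3), and the knockdown levels 23.8 ± 3.23, 17.9 ± 2.29, 12.7 ± 2.41 and 10.1 ± 0.738. The range between the highest and the lowest subunit was thus narrower in the knockdown, a difference that was not tested. CENPF, a large coat protein of the kinetochore, had a log2 change of 0.20 ± 0.07 and groups that did not overlap, but an adjusted p of 0.0568. Without TTC3 shRNA replicate 1 CENPF passed higher (adjusted p = 0.00900) and NDC80 lower (−0.13, adjusted p = 0.0244). CENPE and NUF2 lost their calls without any 1 control or TTC3 shRNA replicate 2, and SPC24 without any library but TTC3 shRNA replicate 1 (adjusted p up to 0.111, 0.153 and 0.10, each without control replicate 3).

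**Figure D2:**
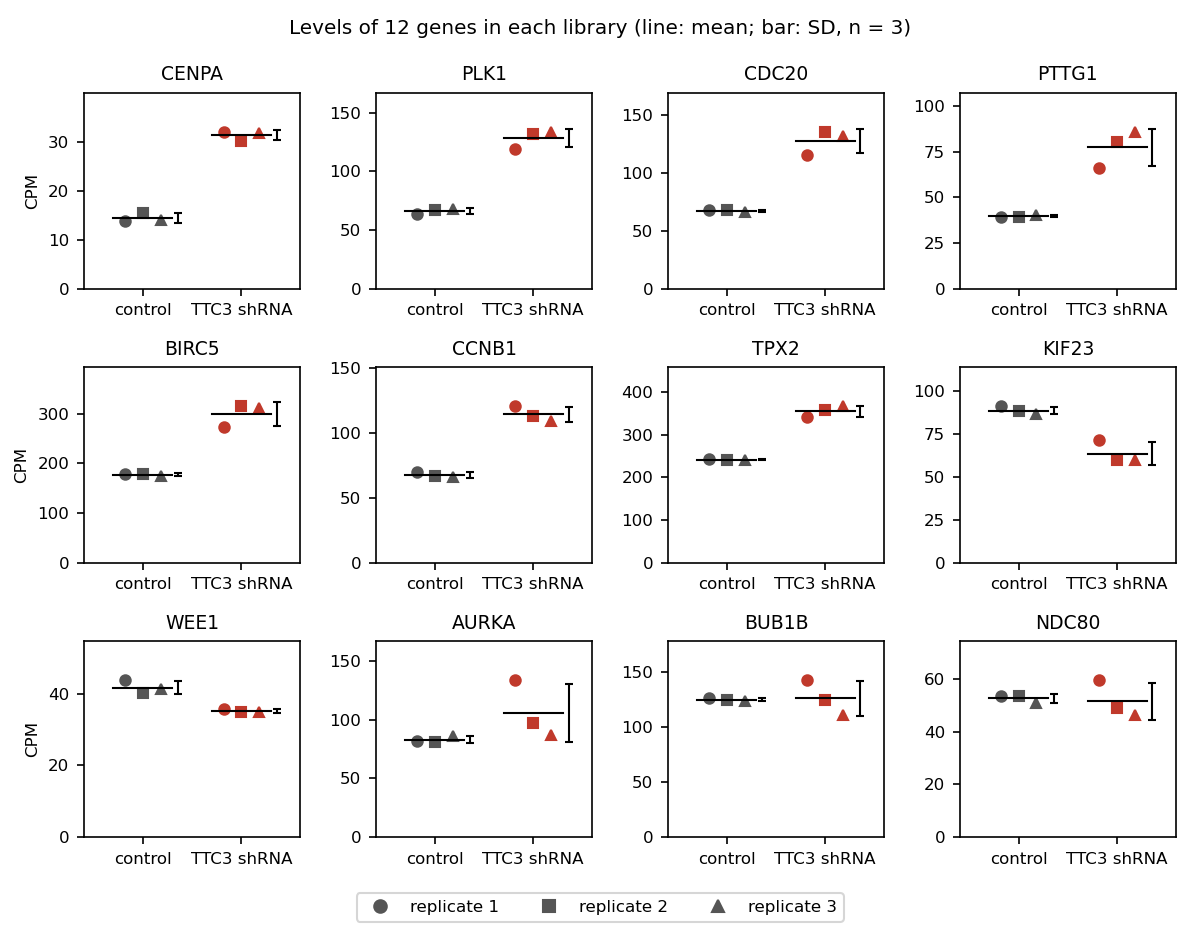
Level of 12 genes in each library (y axis, CPM, starting at 0) for control and TTC3 shRNA (x axis), with replicates as symbols, a line at the mean and a bar for the SD (n = 3). The first 7 genes are higher and KIF23 and WEE1 lower in all 3 knockdown libraries, while in AURKA, BUB1B and NDC80 TTC3 shRNA replicate 1 lies above the other two.

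Among spindle motors and microtubule proteins, 3 of 5 rose and none fell (median 0.34). KIF2C (chr1:44739818-44767767), a kinesin that takes microtubules apart, measured 40.6, 42.1 and 43.7 CPM in the controls and 62.2, 67.5 and 63.5 CPM in the knockdown (0.61 ± 0.06, adjusted p = 0.000677). TPX2 (chr20:31739271-31801805), a spindle assembly factor that activates AURKA, measured 242.4, 240.8 and 240.5 CPM and then 340.5, 357.5 and 366.1 CPM (0.56 ± 0.06, adjusted p = 0.000735). HMMR measured 58.8, 58.5 and 53.2 CPM and then 83.8, 67.9 and 64.6 CPM (0.34 ± 0.11, adjusted p = 0.0456). The groups did not overlap in these genes, with HMMR highest in TTC3 shRNA replicate 1. HMMR lost its call without any 1 control or TTC3 shRNA replicate 2 (adjusted p up to 0.156, without control replicate 3). Per kilobase of transcript, 38.3 ± 1.20 CPM per kilobase of AURKA and 68.9 ± 0.294 of its partner TPX2 in the controls (SD, n = 3) became 48.7 ± 11.4 and 101.4 ± 3.72, and AURKA's change did not pass. The motors KIF11 and KIF18A had log2 changes of 0.19 ± 0.12 and 0.12 ± 0.12 and did not pass.

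Of the central spindle and cytokinesis genes 2 of 6 rose and 1 fell, with a median of 0.13, shares near those over genes at 5 CPM or more (25.4% higher, 18.0% lower). KIF20A (chr5:138178719-138187715), which brings the passenger complex to the midzone, measured 70.8, 70.3 and 69.3 CPM in the controls and 111.3, 97.9 and 103.0 CPM in the knockdown (0.57 ± 0.07, adjusted p = 0.00109). RACGAP1 measured 90.3, 91.1 and 85.9 CPM and then 117.9, 111.8 and 108.0 CPM (0.34 ± 0.06, adjusted p = 0.00669). KIF23 (chr15:69414246-69448427) measured 91.4, 88.5 and 86.8 CPM and then 71.5, 60.0 and 59.9 CPM (−0.48 ± 0.08, adjusted p = 0.00579). Every knockdown library was above every control for the first 2 genes and below every control for KIF23. RACGAP1 and KIF23 are the partners of centralspindlin, a complex of 2 copies of each that bundles the central spindle. Per kilobase they measured 29.4 ± 0.914 and 25.8 ± 0.666 CPM in the controls and 37.1 ± 1.65 and 18.5 ± 1.94 CPM in the knockdown (SD, n = 3). The KIF23 length is uncertain, since transcripts with a GENCODE length held only about 55.2% of its count. KIF23 kept its call in each of the 16 alternative settings, while RACGAP1 lost it under library totals (adjusted p = 0.0826). PRC1, which cross-links antiparallel microtubules, had a log2 change of −0.03 ± 0.06. ECT2, the exchange factor that activates RhoA, measured 260.1 to 266.6 CPM in the controls and 331.2, 253.7 and 249.6 CPM in the knockdown. The scaffold ANLN had the same order, with 353.5 CPM in replicate 1 against 271.5 and 248.2 CPM, and neither passed. TOP2A, which untangles DNA before chromosomes part, measured 313.4, 304.6 and 293.2 CPM in the controls and 400.0, 368.2 and 365.2 CPM in the knockdown (0.31 ± 0.07, adjusted p = 0.0113), and lost its call without control replicate 2 or 3 (adjusted p up to 0.0645).

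The knockdown replicates differed in which genes were raised. Over the 44 genes, the median log2 difference from the control mean was 0.46 in TTC3 shRNA replicate 1, 0.33 in replicate 2 and 0.29 in replicate 3, with 41, 35 and 32 genes above the control mean. Replicate 1 held the highest of the 3 knockdown values in 29 genes, replicate 2 in 6 and replicate 3 in 9. The groups did not follow 1 order. Anaphase genes had medians of 0.46, 0.80 and 0.84 in replicates 1, 2 and 3, and passenger complex genes 0.47, 0.73 and 0.74, lowest in replicate 1. Cytokinesis genes had 0.37, 0.02 and −0.02, kinetochore genes 0.52, 0.34 and 0.21, and spindle motors 0.50, 0.26 and 0.19, highest in replicate 1. Of the 14 genes that did not pass, 12 were above every control in replicate 1, whereas 5 were below every control in replicate 2 and 7 in replicate 3. Their medians were 0.30, −0.0033 and −0.03. Failing the test selects in part for disagreement between libraries, and these counts were not made over all tested genes. The 28 that rose, which the test selected for agreement between libraries, had medians of 0.53, 0.51 and 0.51. Over all tested genes the medians were −0.01, −0.03 and −0.03. The SD between replicates was a median 2.90% of the mean in the controls and 9.35% in the knockdown.

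**Figure D3:**
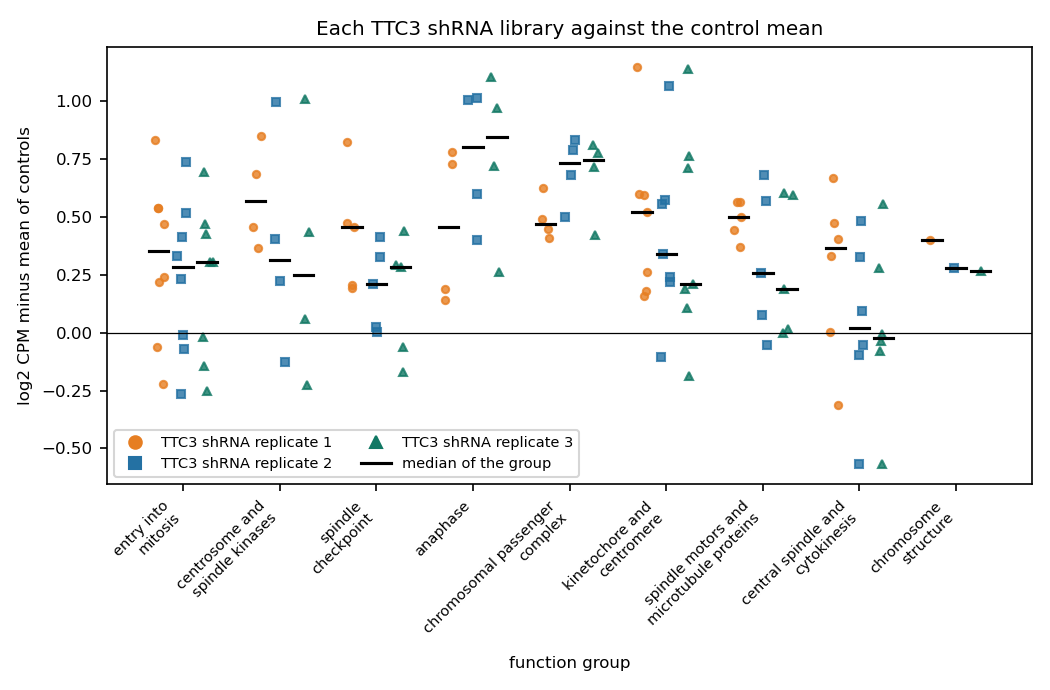
Log2 CPM of each gene minus the mean of the 3 controls (y axis) by function group (x axis), with 1 colour and symbol per TTC3 shRNA library and a black line at the group median. Replicate 1 is lowest for anaphase and passenger complex genes (medians 0.46 and 0.47) and highest for cytokinesis genes (0.37).

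Transcript length moved with the change of the 44 genes. Across the 44 genes, which share libraries, the log2 fold change had a Pearson r of −0.40 (Spearman −0.37) with log2 transcript length, a description across genes that are not independent replicates. By library, r was −0.33, −0.37 and −0.41 in TTC3 shRNA replicates 1, 2 and 3. Over the 100 further mitosis genes described below it was 0.18, −0.30 and −0.38, of opposite sign in replicate 1. Of the 22 shorter genes (median 2169 bases) 17 rose and 1 fell, with a median of 0.48. Of the 22 longer genes (median 3845 bases) 11 rose and 1 fell, with a median of 0.22. PTTG1 is the shortest at 809 bases and CENPF, which did not pass, the longest at 10307 bases. With each library's length trend over other genes removed, which takes the median of all tested genes to −0.14, 27 genes rose and 2 fell (12.8% and 21.3% of all tested genes), and the median of the 44 was 0.35. NUF2 and HMMR lost their calls and CENPF gained one. The largest change was then 0.90.

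**Figure D4:**
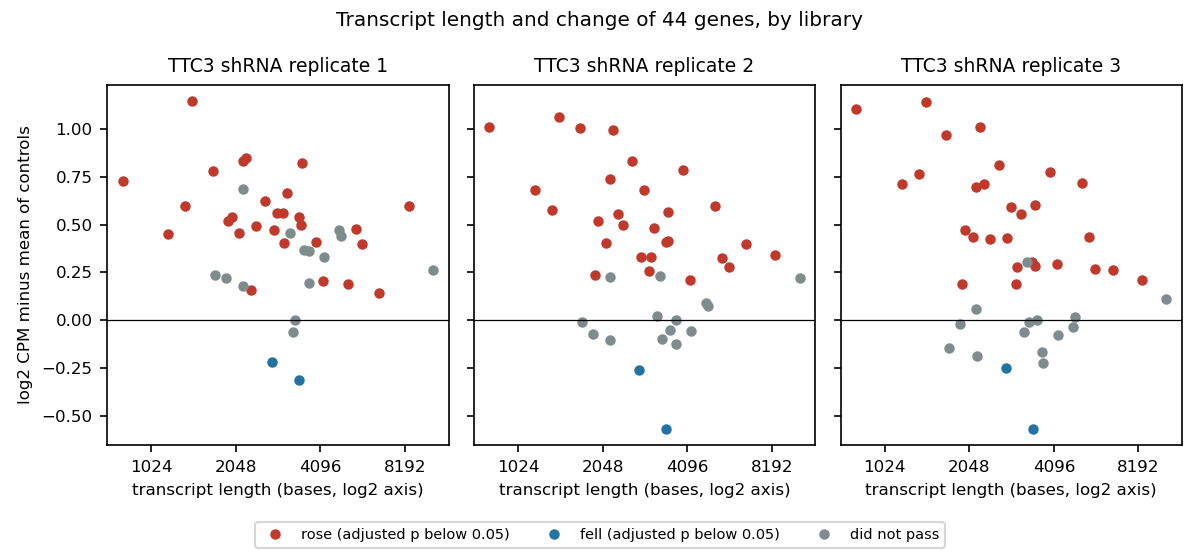
Log2 CPM minus the control mean (y axis) against transcript length in bases (x axis, log scale) for the 44 genes, 1 panel per TTC3 shRNA library, coloured by call. Shorter genes tend to lie higher in each panel, and the 14 grey genes sit above 0 mostly in replicate 1.

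Of 100 further mitosis genes, also listed with earlier results of these data known, 33 rose, 6 fell and 61 did not pass, with a median of 0.12. Over all tested genes 15.7% were called higher and 17.8% lower, and over those at 5 CPM or more 25.4% and 18.0%. The lists of the anaphase-promoting complex (2 of 17 rose), other checkpoint genes (1 of 9), cohesin (2 of 9) and other entry genes (3 of 12) lay at or below the latter share of higher calls. In the constitutive centromere and outer kinetochore list 13 of 26 rose and 1 fell. PMF1, a subunit of the MIS12 complex, measured 19.5 ± 0.124 CPM in the controls and 31.1 ± 1.83 CPM in the knockdown (0.67 ± 0.07, adjusted p = 0.000655). SKA2, SKA1 and CENPO changed by 0.56, 0.40 and 0.47, and CENPQ, named after its value was seen, by −0.46. Of the condensin subunits, which compact chromosomes, 5 of 8 rose. NCAPD2 measured 162.3 ± 2.63 and 241.8 ± 9.19 CPM (0.58 ± 0.06, adjusted p = 0.000665), NCAPH changed by 0.53 and SMC4 by 0.35. Of the 9 cohesin genes 2 rose: CDCA5 (sororin) at 0.66 and STAG1, which went from 35.7 ± 0.669 to 42.9 ± 3.02 CPM, and both calls were lost when some single libraries were left out (adjusted p up to 0.0526 without control replicate 2 and 0.113 without control replicate 1).

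**Figure D5:**
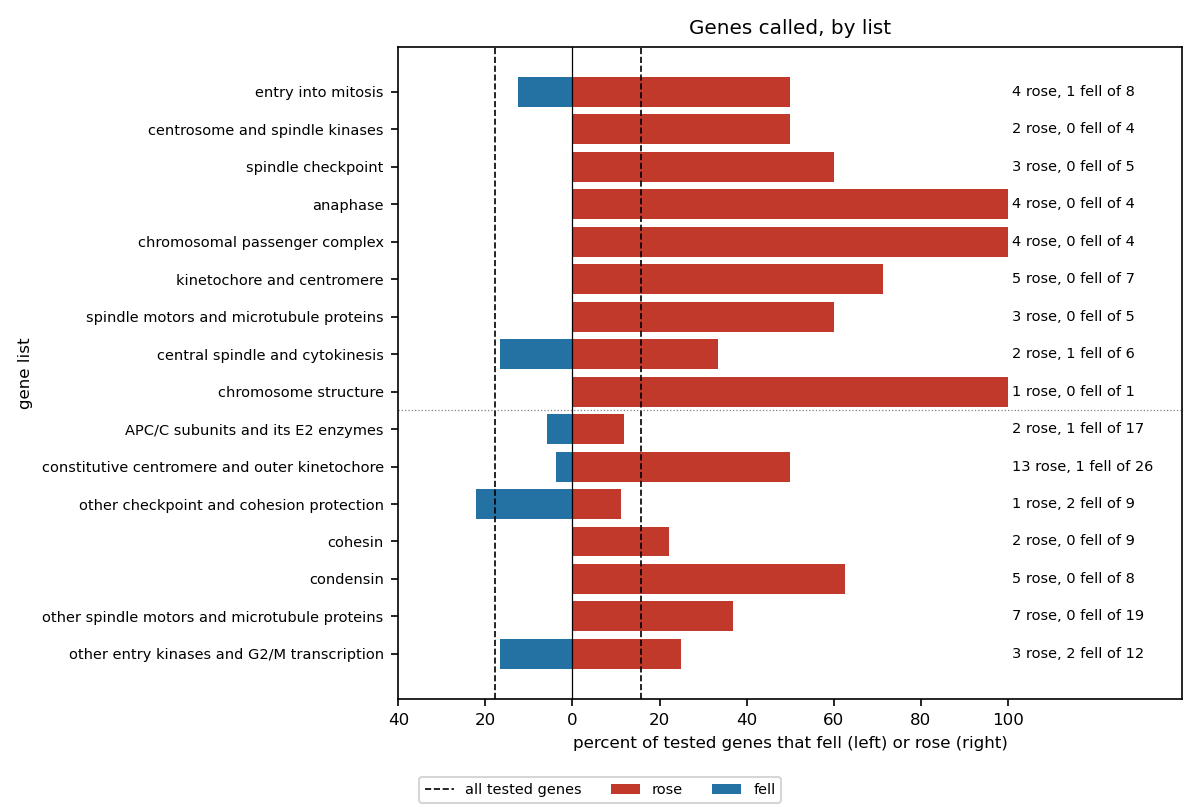
Percent of tested genes in each list that rose (right, red) or fell (left, blue), with the counts beside each bar and dashed lines at the shares over all tested genes (15.7% higher, 17.8% lower). The 8 function groups and TOP2A stand above the dotted line and the 7 further lists below it, where condensin, with 5 of 8, has the largest share that rose.

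Other spindle motors rose in 7 of 19, with KIF4A, a chromosome-bound kinesin, at 93.2 ± 1.86 and 144.7 ± 8.76 CPM (0.63 ± 0.07, adjusted p = 0.000678), and KIF18B at 0.83, DLGAP5 at 0.46 and NUMA1 at 0.42. NUMA1 lost its call when some single libraries were left out (adjusted p up to 0.0644, without control replicate 2). Of 17 genes for subunits, E2 enzymes and an inhibitor of the anaphase-promoting complex, ANAPC15 (0.56) and UBE2S (0.82) rose and CDC16 fell (−0.43). The calls of ANAPC15 and UBE2S were lost without some single libraries (adjusted p up to 0.0649 without control replicate 2 and 0.0892 without TTC3 shRNA replicate 2), as was that of SPDL1 (up to 0.0543, without control replicate 1). In the list of other checkpoint and cohesion genes SGO2 rose (0.43), while SPDL1 (−0.36) and ZWILCH (−0.52), which serve dynein and the RZZ complex at kinetochores, fell. Among other entry genes 3 of 12 rose and 2 fell, shares near those over genes at 5 CPM or more. GTSE1 (0.44), MYBL2 (0.54) and CDC25A (0.31) rose, CDC25A losing its call in 2 of the fits that left out 1 library (adjusted p up to 0.0638, without control replicate 2). ARPP19, an inhibitor of the phosphatase PP2A, fell from 204.3 ± 6.07 to 120.6 ± 21.5 CPM (SD, n = 3; −0.76 ± 0.12, adjusted p = 0.00406). The kinase that activates it, MASTL, also fell, from 31.4 ± 1.46 to 25.4 ± 2.55 CPM (adjusted p = 0.0364), a call that ended when any library but TTC3 shRNA replicate 1 was left out (adjusted p up to 0.138). Without TTC3 shRNA replicate 1, 49 of the 100 rose and 29 fell, which took the number called from 39 to 78. In that setting 27.4% of all tested genes were called higher and 28.6% lower, so the share of the 100 that fell was that of the whole table.

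At the transcript level, 11 of 114 tested transcripts of the 44 genes rose and none fell, against 1.39% higher and 2.6% lower (3.99% in all) of 53805 tested transcripts. A share over transcripts at like levels was not computed. The 11 transcripts came from 10 genes. In 9 of these the gene rose too: CCNB1, PLK1, CDC20, PTTG1, INCENP, BIRC5, CENPA, KIF2C and TPX2. Both CENPA transcripts rose, CENPA-202 from 11.9, 13.9 and 11.8 CPM to 27.4, 25.2 and 26.7 CPM (1.07 ± 0.13, adjusted p = 0.0178) and the rarer CENPA-201 by 1.20 ± 0.21 (adjusted p = 0.0442). PTTG1-201 took 88.6% of its gene's count in the controls and 75.2% in the knockdown. ECT2 was the exception, as the gene did not pass. ECT2-204 measured 87.4, 71.3 and 71.6 CPM in the controls and 166.0, 198.1 and 135.8 CPM in the knockdown (1.12 ± 0.17, adjusted p = 0.0324), while ECT2-216 measured 121.5, 170.8 and 154.9 CPM and then 118.8, 4.32 and 68.3 CPM and did not pass. Division of reads among transcripts is an estimate and can be unstable: KIF20A-205 was listed at 0 in control replicates 2 and 3 but at 35.5 CPM in control replicate 1. Without control replicate 2 or 3 no transcript of the 44 genes passed edgeR's test, with 32 and 30 below an unadjusted p of 0.05. In these fits only 159 and 199 of the 53805 tested transcripts passed. DESeq2 on all 6 libraries called 31 transcripts of the 44 genes and 9143 of all tested transcripts.

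Levels per kilobase of transcript spanned a wide range in the controls. CDC25B (76.0 ± 1.90 CPM per kilobase), TPX2 (68.9 ± 0.294), BIRC5 (67.8 ± 1.04) and CDK1 (67.0 ± 3.58) were highest. The last 3 of these lay within 1 SD of CDK1 of each other, and CDC25B lay above them. CDC25C (5.45 ± 0.185), SPC25 (6.47 ± 0.463) and KIF18A (6.59 ± 0.0353) were lowest (SD, n = 3), and the last 2 differed by less than the SD of SPC25. In the knockdown the means of BIRC5 (114.7 ± 8.90), TPX2 (101.4 ± 3.72) and PTTG1 (95.6 ± 12.6) were above that of CDC25B (85.3 ± 11.1). PTTG1 and CDC25B differed by less than the SD of either.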

How the data were processed

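Total RNA from 6 PC3 libraries, 3 per group, was depleted of ribosomal RNA and sequenced from directional libraries, per the labels' protocols. The submitters' processing notes name Trim Galore, STAR, StringTie and hg38. Versions of these were not given in the sources used here. As deposited by the authors, the values are estimated counts per gene and per transcript in whole numbers, and how StringTie's output became counts is not stated. No column of the tables was left without a sample.

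Genes were kept by filterByExpr (at least 10 counts in a group's libraries, 15 in all), scaled by TMM and tested with edgeR 4.0.16 (quasi-likelihood, group only, Benjamini-Hochberg over all tested genes, R 4.3.3). Transcripts were tested alike. The code was run on simulated counts with known changes. That simulation gave both groups the same dispersion, whereas in these data the knockdown replicates scattered more than the controls. Levels are CPM, and log2 differences of single libraries use a prior count of 2. Smallest and largest counts of a member in a library were 1301 and 60306. Positions and count-weighted transcript lengths came from GENCODE 29. The members and the gene lists were chosen with earlier results of these data known. Values per library were given for the 3 members of each function group with the smallest adjusted p and for called members that moved against most. Outside this rule, knockdown values per library were also given for CDK1, CDC25B, PLK4, BUB1B, INCENP, ECT2 and ANLN. Of other lists up to 4 called genes by adjusted p were named, with CENPQ and MASTL named beyond those 4.

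Alternatives were DESeq2 1.42.0 (size factors and test), library totals, scaling without mitochondrial and the 20 highest genes, limma 3.58.1 voom, all genes unfiltered, a floor of 50 counts in at least 3 libraries, the replicate number as a block, leaving out each library, removing the length trend (lowess, span 0.5, genes at 5 CPM or more) and an adjusted p of 0.01.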

Additional observations from a re-analysis of the deposited data

How the results depend on the processing

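The number of called mitosis genes (30, of which 28 rose) stayed between 20 and 35 over the 16 alternatives. It was 30 with DESeq2 size factors, 31 with the DESeq2 test, 29 with limma-voom, 25 with no filter, 20 with library totals and 20 at an adjusted p of 0.01. Leaving out 1 library gave 20 to 35. In every alternative 18 genes kept their call, and 20 kept it with each library left out in turn. PLK4, at 0.03, ran from −0.16 to 0.15 with 1 library left out, the lowest without TTC3 shRNA replicate 1 (adjusted p = 0.0245) and the highest without replicate 3 (0.492). It was the only one of the 44 whose sign differed from the fit on all libraries while passing the test. The number called over all tested genes (8165) ran from 4556 to 13634 with 1 library left out, and was 4082 at an adjusted p of 0.01. With library totals, the share of calls that were higher was 32.0% in place of 46.9%, and with the length trend removed 37.5%. Of the 100 further mitosis genes, 39 were called, 22 with library totals, 18 at an adjusted p of 0.01, and 18 to 78 with 1 library left out. Called transcripts of the 44 genes (11) numbered 31 with DESeq2 and 0 to 21 with 1 library left out. Over all tested transcripts 2148 were called, 9143 with DESeq2 and 159 to 7049 with 1 library left out. Fewer libraries entered the fits that left one out, and otherwise the cause was not tested. Whether replicate numbers pair the libraries could not be decided. The correlations of same-numbered deviations from the group means were 0.136, 0.123 and 0.0322. The third replicates did not correlate best with each other, as control replicate 3 had 0.0363 with TTC3 shRNA replicate 2. Deviations from means of only 3 libraries cannot settle the question. With a replicate block, 28 of the 44 genes, 6929 of all tested genes, 31 of the 100 further genes and 0 of the 114 transcripts were called, the last with 32 transcripts below an unadjusted p of 0.05 in edgeR. The block called 0 of all 53805 tested transcripts.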

Other observations

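Near-identical copies of 2 of the genes had counts of their own. CDC20P1, a pseudogene of CDC20, had 212, 215 and 212 counts in the control libraries and 308, 446 and 440 in the TTC3 shRNA libraries, 1.77% to 2.41% of the CDC20 count. AURKAP1, a pseudogene of AURKA, had 337, 276 and 265 counts in the controls and 240, 141 and 133 in the knockdown, or 2.06% to 2.57% and 1.06% to 1.19% of the AURKA count. Reads shared with such copies can be divided uncertainly, but at these shares they are a small part of either gene. PTTG2, PTTG3P and BUB3P1 had no more than 7 counts in any library.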
